A study of Arabidopsis thaliana with 6 samples.

Results

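The transcripts described here stood apart in Arabidopsis thaliana seedlings that had received 1 spray of inducer 24 h before harvest, while seedlings kept on inducer and empty-vector controls read alike. They were chosen on the measured values themselves. On the log2 scale the mean of the temporal induction arrays had to differ by at least 0.8, in 1 direction, from the means of both other groups. The prolonged and control means had to lie within 0.4 of each other, both temporal arrays had to lie beyond all 4 other arrays, and the highest group mean had to be a linear signal of at least 50. Of 22746 probe sets, 91 met this rule. In 35 of them the temporal arrays were higher and in 56 lower. A single gene of the reference annotation was paired with 59 of the 91, 20 in the higher set and 39 in the lower set, and 1 probe set carried several gene symbols. The remaining 31 have no gene name in the platform's probe table.

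The study asked how nuclear genes respond when division of chloroplasts is inhibited, using 6 ATH1 arrays, Affymetrix oligonucleotide arrays, on whole 14-day-old seedlings. Each of 3 groups had 2 arrays. Control seedlings carried the empty vector PER-10 in a Ler-0 background and were sprayed with 2 µM 17-B-estradiol at day 13, as the labels spell it, then harvested 24 h later. Temporal induction seedlings, labelled Ler-1, were sprayed once at the same age with 2 µM of what the labels call 7-B-estradiol, here taken to be the same inducer. Prolonged induction seedlings, also labelled Ler-1, were sown on the inducer and sprayed every 24 h until harvest. All 3 groups are labelled T-DNA, grew in constant light and had 4 rosette leaves. The sources used here do not name the transgene of the induced groups, and no group held seedlings of the induced line without inducer. The controls had the same single spray, so these transcripts are not shown to respond to the spray as such, and the labels do not say that both induced groups are 1 transgenic line. Nothing in the labels says that replicates came from separate cultures, so the spread between them may be technical.

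An oestradiol-inducible vector carries a chimeric transcription factor that enters the nucleus once it binds the hormone and then switches on the transgene. A single spray therefore gives a view a day after the transgene is called on, and growth on inducer gives a view of organs formed with it on from the start. Chloroplasts multiply by binary fission at a ring built of FtsZ proteins and dynamin-like proteins, and plastids send signals that alter transcription of nuclear genes. The values below are MAS5 signals, in arbitrary units, which combine the probes of 1 transcript and were scaled by the authors to a common mean per array.

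The arrays were alike in scale, with median signals of 53.1 to 58.8. RNA integrity was read from control probe sets, as the signal at the 3' end over that at the 5' end. This ratio was 2.43 and 2.48 for GAPDH in the temporal arrays against 1.82 to 2.67 in the others. For actin it was 3.19 and 5.22 in the temporal arrays against 4.19 to 6.14 in the others, and for ubiquitin 1.58 and 1.79 against 1.66 to 1.87. The temporal arrays thus overlapped with the others on GAPDH and ubiquitin, and 1 temporal array had the lowest actin and ubiquitin ratios. The part of RNA integrity in the results was not tested. Of the cell type marker lists, 3 of 18 root markers had a probe set paired with 1 gene, called measured here. Their summed signal was 4172 and 4813 in control, 3872 and 2679 under prolonged and 3784 and 3698 under temporal induction. Most of this sum was PYK10, at 4006 and 4660, 3820 and 2618, and 3674 and 3597 in the same order. EXPA7 read 105 and 86.7, 27.5 and 50.1, and 53.5 and 43.0. EXPA18 read 60.6 and 66.3, 24.1 and 11.5, and 56.5 and 57.8. In each of the 3 genes the temporal arrays lay within the range of the others. Summed over the 2 measured anther and pollen markers it was 16.0 and 35.7 in control, 93.7 and 134 under prolonged and 82.7 and 92.9 under temporal induction, with AMS below 23.5 on all 6 arrays. The 2 measured shoot meristem and flower markers summed to 25.5 and 23.9 in control, 77.3 and 59.6 under prolonged and 82.1 and 85.6 under temporal induction, so that both temporal arrays were above the others, with CLV3 below 23.5 on all 6. The 2 measured guard cell markers summed to 91.2 and 127 in the temporal arrays and 79.4 to 127 in the others. The 1 measured epidermis marker read 107 and 16.9 against 34.1 to 76.8, and 0 of 18 embryo and seed markers had a probe set paired with 1 gene. Markers not counted as measured may still have a probe set that the probe table does not pair with 1 gene. All 11 measured photosynthesis genes had a group mean of at least 50. The part of these cell types in the results was not tested. In whole seedlings, fewer cells of a type and less RNA per cell cannot be told apart.

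Both temporal arrays lay above all 4 other arrays for 5.81% of all probe sets and below them for 5.29%, or 1322 and 1203 probe sets. The difference of 0.8 from both groups left 419 and 407 of these, and the limit on prolonged minus control left 179 and 204. The signal minimum left the 35 and 56. Both temporal arrays can lie beyond the 4 others without any group difference, so the counts at these steps are not read as a response. The rule was then applied with each other group in the place of temporal induction. It chose 603 probe sets with control apart, 179 higher and 424 lower, and 193 with prolonged induction apart, 41 higher and 152 lower. Relative to the probe sets that were bright enough and alike in the other groups, 0.455% were higher and 0.729% lower with temporal induction apart. The shares were 1.72% and 4.07% with control apart and 0.479% and 1.78% with prolonged induction apart. Temporal induction was thus the group with the fewest such transcripts in each direction, by count and by share. In the higher direction it was close to prolonged induction, at 35 against 41 and 0.455% against 0.479%. Counts with the other groups apart are given for the main settings only, so it is not known whether this order holds under others. No test of these differences was made, since groups of 2 arrays set all of them.

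**Figure D1:**
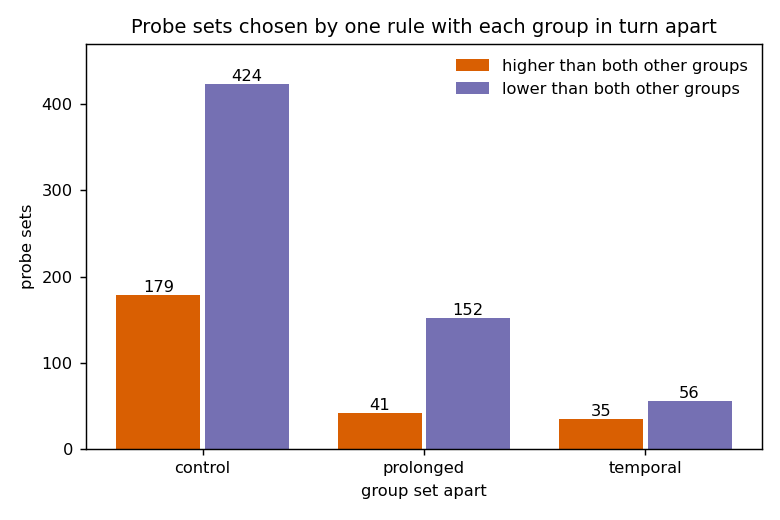
Bars show the number of probe sets (y axis) that the same rule chose when control, prolonged or temporal induction (x axis) was the group set apart. Temporal induction gave 35 higher and 56 lower probe sets, against 179 and 424 for control.

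Limma was fitted on all 6 arrays, with Benjamini-Hochberg adjustment over 15922 tested probe sets. Against control 0 of 33 tested higher members passed an adjusted p of 0.05, where rises passed for 1.7% of all tested probe sets. Of 56 lower members 6 passed against control, where falls passed for 0.729% of all. An unadjusted p under 0.05 against control was found for 12 higher and 41 lower members, against 2347 of all 15922 in either direction. Against prolonged induction 0 of 33 higher members passed, where rises passed for 0.0502% of all. Of the 56 lower members 1 passed, where falls passed for 0.0377% of all. An unadjusted p under 0.05 was found for 11 higher and 35 lower members, against 940 of all 15922 probe sets in either direction. For prolonged induction against control 0 of the 89 tested members passed in limma, where 6.95% of all probe sets passed. An unadjusted p under 0.05 was found for 0 of the 89, against 3187 of all 15922. The rule used these same differences, so the counts describe the members and support nothing about them. The 6 were AT1G35280, AT2G10930, AT4G29560, AT1G07310, AT5G35660 and AT5G11980, and AT1G35280 was also the 1 that passed against prolonged induction. With 1 array left out, 2 or 3 members passed against control, and 1 to 3 of them were among the 6. Of the 6 only 1 passed without temporal replicate 1, 2 without control replicate 1 or temporal replicate 2, and 3 without any other array. Against prolonged induction 0 passed without either prolonged or either temporal array. Below, "higher" and "lower" therefore state the order of the arrays.

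**Figure D2:**
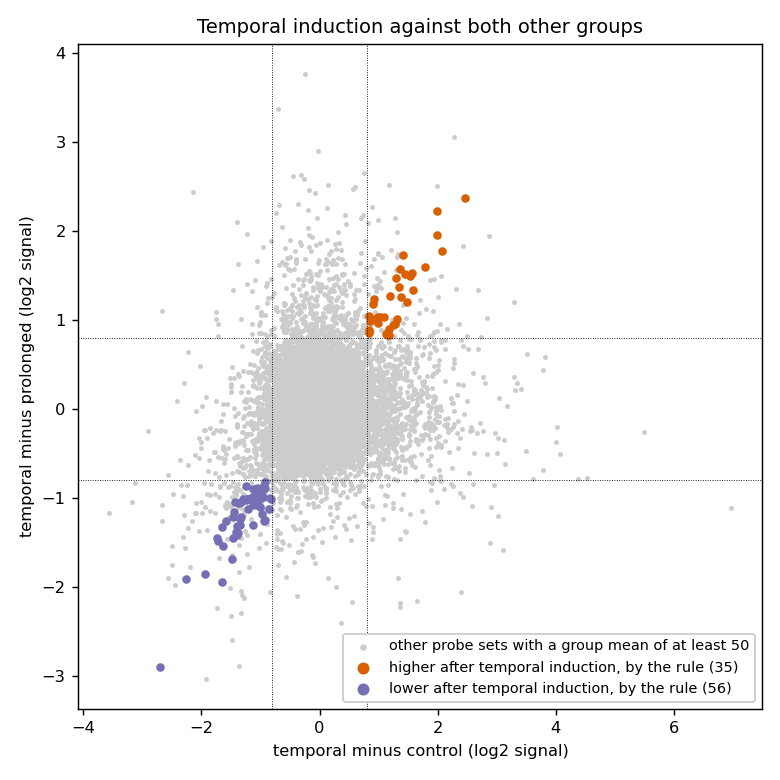
Each point is a probe set with a group mean of at least 50, placed by temporal minus control (x axis) and temporal minus prolonged induction (y axis), both in log2 signal, and dotted lines mark 0.8 and −0.8. The 35 higher and 56 lower probe sets lie past both lines near the diagonal, where other grey points failed another condition of the rule.

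Among the named higher genes, AT1G76580 and TET5 had the largest differences from the nearer group. AT1G76580, a gene of the SBP-box (squamosa promoter binding protein-like) transcription factor family, read 13.2 and 15.6 in control, 19.8 and 11.7 under prolonged induction, and 89.9 and 69.9 under temporal induction. Both temporal arrays were over 3 times as bright as any other array, by 3.52-fold at the nearest pair, with a log2 difference of 2.47 ± 0.73 (SE) from control and 2.38 ± 0.73 from prolonged induction. The control and prolonged means, 14.4 ± 1.66 and 15.8 ± 5.74 (SD, n = 2), lay under 23.5, the level below which 30% of probe sets have their mean, so the size is not exact. TET5, which encodes a tetraspanin, a small protein with several membrane spans that organises membrane microdomains, gave signals of 101.3 and 67.1 in the temporal arrays, 16.6 and 23.3 in the control arrays and 27.5 and 21.2 in the prolonged arrays. Control and prolonged arrays overlapped, and the dimmer temporal array was 2.44-fold above the brightest of them. AT3G10210, of a family with SEC14-type lipid transfer domains, read 134 and 52.0 in control, 82.4 and 57.6 under prolonged induction, and 182 and 135 under temporal induction. The lower temporal array and the first control array were nearly level, 1.003-fold apart. UGT71C5, a UDP-glucosyltransferase that can conjugate abscisic acid to glucose, had temporal signals of 92.8 and 63.9 against 25.9 and 38.7 in control and 56.2 and 28.1 after prolonged induction. Its lower temporal signal exceeded the first prolonged array only by 1.14-fold.

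The next higher genes are described singly, with no count or test of a shared function. AT2G25450 encodes a 2-oxoglutarate-dependent dioxygenase that hydroxylates the side chain of a glucosinolate. It read 40.2 and 40.2 in control, 46.6 and 41.3 under prolonged induction, and 118 and 93.3 under temporal induction. The 4 other arrays lay within 1.16-fold of each other and the dimmer temporal array stood 2.002-fold above them, with a log2 difference of 1.38 ± 0.37 (SE) from control and 1.26 ± 0.37 from prolonged induction. AT4G16260, a glycosyl hydrolase family gene of the β-1,3-glucanase type, was the brightest of the higher set and read 223 and 152 in control, 193 and 163 under prolonged induction, and 335 and 321 under temporal induction. Its temporal mean was 328 ± 9.90 (SD, n = 2) against 187 ± 50.7 and 178 ± 21.5, and the log2 differences were 0.83 from control and 0.89 from prolonged induction. AT3G56760, a protein kinase related to the calcium-dependent kinases, gave signals of 93.0 and 78.2 in the temporal arrays, 27.8 and 51.4 in the control arrays and 69.4 and 33.3 in the prolonged arrays. The lower temporal signal was 1.13-fold above the first prolonged array.

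Further higher genes had wide pairs in the other groups. AT2G13440, related to the bacterial GidA proteins of transfer RNA modification, read 33.0 and 6.4 in control, 44.2 and 6.18 under prolonged induction, and 45.8 and 54.4 under temporal induction. Replicate 1 of both other groups was thus close to the temporal level and replicate 2 far below it. AT2G31100, of a lipase family, and AT5G49560 had wide pairs as well, but not in the same replicate order. AT2G31100 read 46.5 and 16.5 in control and 16.5 and 48.5 under prolonged induction. AT5G49560 read 40.7 and 10.0 in control and 8.16 and 37.3 under prolonged induction. In both genes replicate 1 was thus the brighter in control and replicate 2 under prolonged induction. AT4G14930, related to the bacterial SurE survival proteins, had temporal signals of 124 and 204 against 97.0 and 66.5 in control and 112 and 54.5 after prolonged induction. AT5G45500, of a leucine-rich repeat family, had temporal signals of 48.1 and 55.0 against 13.7 and 29.6 in control and 22.7 and 17.5 after prolonged induction, and its nearest arrays were 1.63-fold apart. In AT2G38840, of the guanylate-binding protein family, the temporal arrays read 86.9 and 74.3 and the brightest of the others 70.5. The annotated pseudogenes AT4G04010 and AT4G07450 had temporal means of 67.0 ± 12.9 and 55.5 ± 21.2 (SD, n = 2), on probe sets of a kind that can hybridise to related sequences. AT1G56180, AT5G17370, AT3G28680, AT2G39100 and AT4G36980 completed the 20 genes, with log2 differences from the nearer group of 0.84 to 1.198. The 15 higher probe sets without a single gene had temporal means of 50.1 to 110.4, control means of 14.6 to 59.2 and prolonged means of 13.1 to 54.1.

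**Figure D3:**
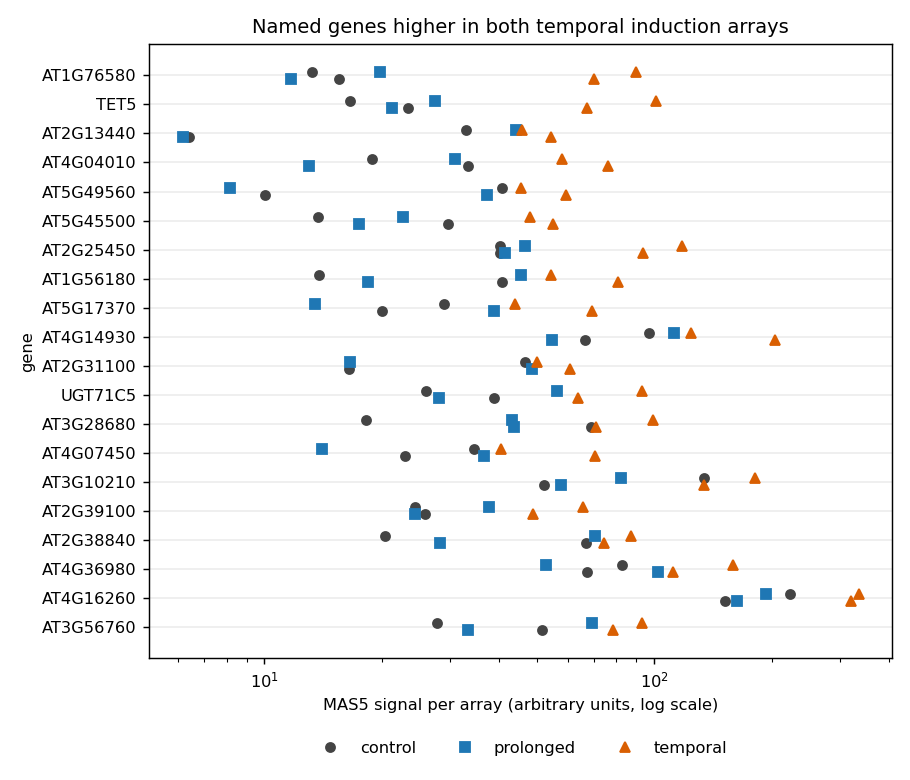
Signal per array (x axis, MAS5 units on a log scale) is shown for the 20 genes of the higher set (y axis), with circles for control, squares for prolonged and triangles for temporal induction. Triangles lie to the right of every other mark, far to the right in AT1G76580 and by 1.003-fold in AT3G10210.

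Among the lower transcripts AT1G35280 stood out. It read 101.2 and 113 in control, 124 and 119.9 under prolonged induction, and 14.7 and 18.1 under temporal induction. The brighter temporal array lay 5.595-fold below the dimmest of the others, the widest gap of all 91 members, with a log2 difference of −2.71 ± 0.35 (SE) from control and −2.90 ± 0.35 from prolonged induction. The annotation calls AT1G35280 a pseudogene and its probe set is of a kind that can match several transcripts, so the signal may not come from this locus alone. The temporal mean of 16.4 lies under 23.5, so the size is not exact.

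The brightest lower transcripts had control means over 100. AT1G07310, of a family with a C2 domain that binds membranes in response to calcium, read 275 and 446 in control, 241 and 376 under prolonged induction, and 141 and 158 under temporal induction. Control and prolonged signals overlapped with each other while both temporal signals lay 1.53-fold or more below them, with a log2 difference of −1.23 ± 0.26 (SE) from control and −1.02 ± 0.26 from prolonged induction. AT5G11980, related to a subunit of the conserved oligomeric Golgi complex, which tethers vesicles, gave signals of 57.9 and 103 in the temporal arrays, 182 and 178 in the control arrays and 152 and 159 in the prolonged arrays. Its control and prolonged pairs were tight, and the 2 temporal arrays differed from each other by 1.77-fold. AT5G35660 had temporal signals of 68.5 and 74.4 against 207 and 149 in control and 155 and 134 after prolonged induction. Its nearest arrays were 1.802-fold apart and the log2 differences were −1.30 from control and −1.01 from prolonged induction. AT4G29560 read 163 and 100.7 in control, 102 and 115 under prolonged induction, and 52.3 and 41.4 under temporal induction. AT2G10930 gave signals of 30.2 and 58.0 in the temporal arrays, 122 and 128 in the control arrays and 85.9 and 116 in the prolonged arrays. Both genes kept the temporal arrays clear of the rest, by 1.92-fold and 1.48-fold. AT1G71691, of the GDSL lipase family, had temporal signals of 37.4 and 63.5 against 123 and 142 in control and 69.6 and 146 after prolonged induction. Here the first prolonged array came within 1.096-fold of the brighter temporal array.

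The lower genes that follow are ordered by general knowledge of their families, with no list, count or test of such groups. AT3G58140, which encodes a phenylalanyl-tRNA synthetase of organelles, read 134 and 261 in control, 163 and 276 under prolonged induction, and 84.9 and 131 under temporal induction, so that temporal replicate 2 and control replicate 1 were nearly level. AT5G02860, a pentatricopeptide repeat gene, of a family that binds organelle transcripts, gave signals of 24.1 and 6.73 in the temporal arrays, 39.2 and 60.9 in the control arrays and 50.2 and 42.1 in the prolonged arrays. The other pentatricopeptide repeat gene of the set, AT2G36730, had means of 56.8 ± 14.3 in control, 50.1 ± 6.01 after prolonged and 27.0 ± 1.62 after temporal induction (SD, n = 2). It was named after its values were seen, for its family. Its temporal pair was tight, unlike that of AT5G02860. AT3G13180, of the NOL1/NOP2/Sun family of RNA methyltransferases, had temporal signals of 18.17 and 42.1 against 46.3 and 104 in control and 58.8 and 55.3 after prolonged induction. The brighter temporal array of this gene was close to the first control array. AT3G01920, related to the bacterial YrdC proteins of transfer RNA modification, read 119.6 and 109.8 in control, 117 and 107 under prolonged induction, and 53.8 and 68.5 under temporal induction. In this gene the 4 other arrays lay within 1.12-fold of each other and 1.56-fold or more above the temporal arrays, with log2 differences at −0.92 from control and −0.89 from prolonged induction. AT3G43590, with a zinc knuckle domain found in nucleic acid binding proteins, had temporal signals of 32.8 and 36.3 against 64.1 and 103 in control and 75.3 and 65.4 after prolonged induction. Here both temporal arrays stood clear of the others, by 1.77-fold.

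Further lower genes came from unlike families. VPS9B, related to the exchange factors that activate RAB5-type GTPases of endosomes, read 70.6 and 62.9 in control, 74.4 and 58.5 under prolonged induction, and 13.9 and 41.9 under temporal induction. The 2 temporal arrays differed by 3.02-fold, more than the 4 others did among themselves. AT1G79630, of the protein phosphatase 2C family, gave signals of 39.5 and 11.9 in the temporal arrays, 67.2 and 47.5 in the control arrays and 47.4 and 68.7 in the prolonged arrays. Its temporal arrays were uneven as well, the first lying near the dimmest of the others. AT4G11340, with the TIR domain of many disease resistance proteins, had temporal signals of 34.9 and 18.4 against 52.3 and 87.7 in control and 47.3 and 92.3 after prolonged induction. In control and under prolonged induction replicate 2 was the brighter array. AT5G15710, an F-box gene whose family selects proteins for ubiquitination, read 65.6 and 107 in control, 53.3 and 87.3 under prolonged induction, and 24.4 and 38.4 under temporal induction. Control and prolonged arrays overlapped, and the brighter temporal array lay 1.39-fold below the dimmest of them. AT3G59470, of the FAR1-related factor family of transposase origin, gave signals of 40.1 and 11.2 in the temporal arrays, 41.1 and 68.8 in the control arrays and 46.5 and 51.5 in the prolonged arrays. In AT3G59470 the first temporal array was level with the first control array to within 1.02-fold, and the second was far lower. AT3G47010, of a glycosyl hydrolase family that acts on cell wall glycans, had temporal signals of 13.7 and 55.3 against 64.2 and 82.4 in control and 60.9 and 77.1 after prolonged induction. It too had 1 temporal array near the others. SGP1, a small GTPase gene, was named after its values were seen, as the other lower member with a gene name, and read 94.9 and 70.2 in control, 94.5 and 80.9 under prolonged induction, and 24.1 and 68.8 under temporal induction.

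The other named lower genes, AT1G51080, AT1G43760, AT3G03970, AT5G59000, AT4G15820, AT3G20850, AT3G04560 and AT5G02440, had temporal means of 15.9 to 33.2 and control means of 46.1 to 65.5. AT4G15820 and AT5G02440 had close temporal pairs, 27.9 and 28.7, and 34.4 and 30.1, each 1.75-fold and 1.56-fold clear of the nearest other array. In AT3G20850 the brighter temporal array came within 1.06-fold of the nearest other array. The 13 further lower genes, AT2G36730 and SGP1 among them, had temporal means of 26.5 to 48.8 and control means of 47.2 to 98.2. The 17 lower probe sets without a single gene had temporal means of 18.5 to 46.8, control means of 42.7 to 109.9 and prolonged means of 38.9 to 104.

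**Figure D4:**
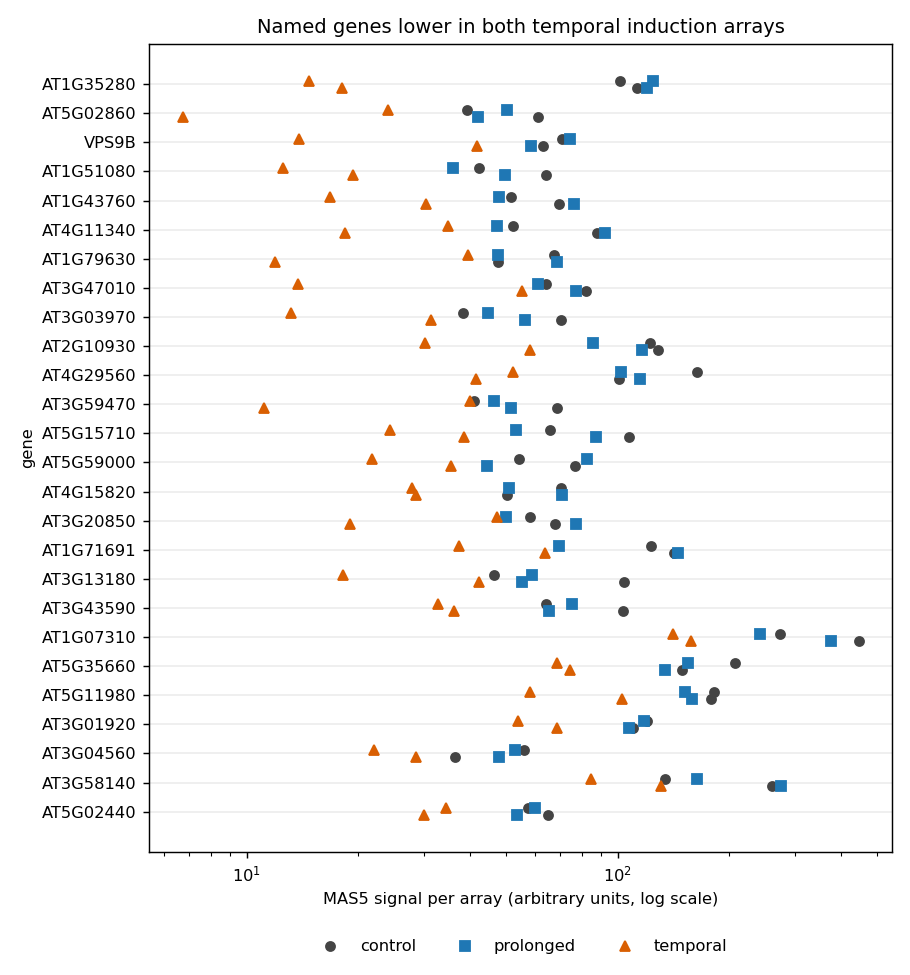
Signal per array (x axis, MAS5 units on a log scale) is shown for the 26 named genes of the lower set (y axis), with circles for control, squares for prolonged and triangles for temporal induction. Triangles lie to the left of every other mark, with the widest gap in AT1G35280, and the 2 triangles are often far apart.

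The higher and lower sets differed in which arrays were uneven. The median log2 difference from the nearer group was 1.02 in the higher set and −1.03 in the lower set, and 19 of 35 and 34 of 56 were past 1 in size. Temporal minus control had a median of 1.24 in the higher set and −1.22 in the lower set, and temporal minus prolonged induction one of 1.18 and −1.08. In the higher set the temporal pair differed by over 2-fold in 1 of 35 probe sets, the control pair in 14 and the prolonged pair in 18. In the lower set the temporal pair did so in 18 of 56, the control pair in 2 and the prolonged pair in 4. Of all 13828 probe sets with a group mean of at least 50, the temporal pair differed by over 2-fold in 5.86%, the control pair in 8.80% and the prolonged pair in 8.32%. The uneven pairs were thus in the dimmer groups of each set. The rule limited the group means and the order of the arrays, not the spread of the brighter or the dimmer pairs. Why the dimmer pairs were the uneven ones was not tested. The 13828 probe sets had a median highest group mean of 120, against 67.7 and 66.3 in the higher and lower sets, so they are not matched in brightness.

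Most members were dim. The highest group mean was between 50 and 100 in 28 of 35 higher and 46 of 56 lower probe sets, whereas 39.8% of all probe sets with a group mean of at least 50 were in that range. Its median was 67.7 and 66.3 in the 2 sets against 120 over those probe sets. At least 1 array read under 23.5 in 24 of the higher and 34 of the lower set. The gap between the nearer temporal array and the nearest other array was over 1.5-fold in 9 higher and 18 lower probe sets, and under 1.1-fold in 10 and 13. A gap over 1.5-fold with the 4 other arrays within 2-fold of each other was found in 6 higher and 17 lower probe sets. The named genes among the 6 were AT1G76580, TET5 and AT2G25450. Those with 1 gene among the 17 were AT1G35280, AT5G02860, AT1G51080, AT1G43760, AT4G29560, AT4G15820, AT3G43590, AT1G07310, AT5G35660, AT3G01920, AT5G02440, AT2G36730 and AT2G38090, the last named after its values were seen.

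**Figure D5:**
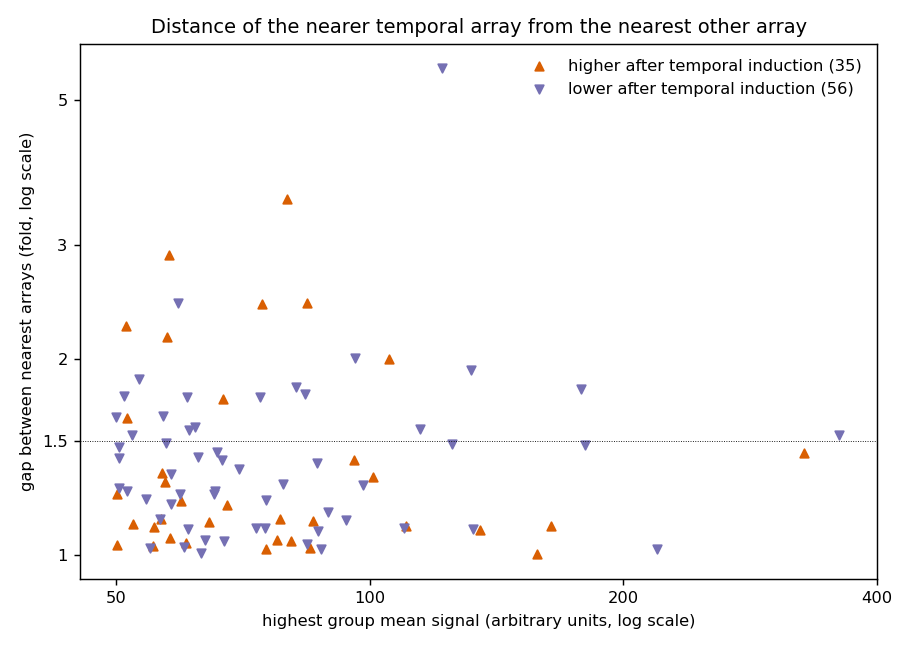
Each point is 1 of the 91 probe sets, placed by its highest group mean signal (x axis, log scale) and by the fold gap between the nearer temporal array and the nearest other array (y axis, log scale), with a dotted line at 1.5-fold. Most points lie left of a signal of 100 and under the line, and AT1G35280 is the highest point at 5.595-fold.

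At the threshold of 0.8 the choice was narrow. Just inside it in the higher set were AT3G56760, AT4G16260 and AT4G36980, with log2 differences from the nearer group of 0.83, 0.83 and 0.84. Just outside were AT1G55960, AT3G20700 and AT2G35750 at 0.78, 0.76 and 0.76. In the lower set AT5G02440, AT3G58140 and AT3G04560 were just inside, at −0.82, −0.83 and −0.84. VPS2.1, AT5G59050 and AT1G22830 were just outside, at −0.797, −0.797 and −0.794.

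The choice was also made on 5 arrays and read on the temporal array that had been left out. Without temporal replicate 1 the rule chose 81 higher probe sets, and that array lay above all 4 control and prolonged arrays in 36 of them, or 44.4%. It did so in 17.1% of all probe sets. Without temporal replicate 2 it chose 129, and the array left out lay above the 4 in 52, or 40.3%, against 15.9% of all. For lower probe sets the counts were 59 of 155 (38.1%, against 15.8% of all) and 63 of 162 (38.9%, against 16.2% of all). Probe sets that were bright and alike in control and prolonged induction were also read. Among these the array left out lay above the 4 in 17.7% and 15.8% for replicates 1 and 2. It lay below them in 20.8% and 20.8%. The rule asks for the likeness, but the temporal mean alone can meet its signal minimum. In the higher set the median control and prolonged means were 31.5 and 32.0, under that minimum. The shares of 17.7% and 15.8% are therefore not a matched background for higher probe sets. The median of the array left out minus the mean of the 4 others was 0.52 and 0.43 for higher and −0.23 and −0.21 for lower probe sets, below the 0.8 of the rule. The 4 other arrays took part both in the choice and in the reading, for higher and lower probe sets alike. None of the shares, the 20.8% for lower probe sets included, is therefore a matched background. The shares are descriptive and no test was made on them. In 23 and 17 of the higher and 20 and 20 of the lower probe sets, the array left out was both beyond the 4 others and at least 0.8 from both group means. The share of all probe sets that met both conditions was not computed, so nothing is read from these counts.

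Other properties, which the rule did not use, were read for the 59 members with 1 gene. By position, 10, 10, 14, 12 and 13 of them lie on chromosomes 1 to 5. Over all such probe sets with a group mean of at least 50 the shares were 26.0%, 15.0%, 20.2%, 14.7% and 24.1%. None neighboured another member in gene order. The closest pair was UGT71C5, of the higher set, and AT1G07310, of the lower set, 8 genes apart. Annotated pseudogenes were 4 of the 59, AT4G04010 and AT4G07450 in the higher and AT1G35280 and AT4G08890 in the lower set, against 923 of 13436 on the array. Probe sets of the 4 are all of the kinds that can match several transcripts. The median annotated gene length was 2509 bases in the higher set and 2404 in the lower set, and 2257 over the named probe sets with a group mean of at least 50.

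Genes of 17 lists for hormone, stress, light, cell cycle, cell wall, photosynthesis, plastid division, nutrient and senescence pathways were looked up, with 6 lists of cell type markers. Only 59 distinct genes of these lists had a probe set paired with 1 gene, 48 of them with a group mean of at least 50. None of the 59 met the rule, where 91 of 22746 probe sets did. The median of temporal minus the mean of the other groups was −0.01 over the 59 and 0.02 over all probe sets, in log2 signal. Both temporal arrays lay above all 4 others for 2 of the 59 and below them for 1, where 5.81% and 5.29% of all probe sets did, so the 3 genes are given as values only. COR15A, a cold-induced plastid protein gene that responds to abscisic acid, read 53.9 and 112 in control, 59.0 and 61.2 under prolonged induction, and 39.2 and 47.1 under temporal induction. LTI30, a dehydrin gene, gave signals of 110.1 and 109.6 in the temporal arrays, 90.4 and 106 in the control arrays and 89.1 and 72.7 in the prolonged arrays. AGL24, a MADS-box gene that promotes flowering, had temporal signals of 79.9 and 81.4 against 21.3 and 21.0 in control and 74.6 and 44.8 after prolonged induction. COR15A was thus lower, and LTI30 and AGL24 higher, in both temporal arrays, the last with its prolonged arrays well above control. The 3 measured plastid division genes, FTSZ2-1, FTSZ2-2 and FZL, were not among the members.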

How the data were processed

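RNA of whole seedlings was hybridised to 6 ATH1 arrays, 2 per group. The authors deposited intensity signals on a linear scale, which per the submitters' processing notes were made in GCOS by MAS5, with versions not given in the sources used here. The mean after trimming 2% from each end was 100.01 on every array. Detection calls and image files were not used here, and the number of arrays limits the precision.

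The 64 Affymetrix control probe sets were set aside. Signals were taken to log2 for the rule on 22746 probe sets. Names came from the probe table of the platform and the TAIR10.1 annotation, which served for names, gene types and gene order only. Of the probe sets, 13436 had 1 gene in it. Roles of genes are general knowledge and not from these tables. Standard errors and adjusted p-values came from limma 3.58.1 in R 4.3.3, fitted on all 6 arrays with an intensity trend without the dimmest 30% of probe sets, so that 15922 were tested. The median standard error of a log2 difference was 0.32. With 2 arrays against 2 an exact test cannot go below a two-sided p of 0.333.

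The members and lists were chosen with earlier results of these data known. Named genes were members with 1 gene: the 20 with the largest difference from the nearer group in each direction, the 8 with the highest temporal (higher set) or control (lower set) signal, members of a list or next to another member, and the 3 nearest to the threshold on each side. Of the lists, 2 symbols that matched an unrelated gene were dropped. On simulated data of 15922 probe sets, for temporal induction against control, limma found 11% of changes of 1 log2 unit and 52% of changes of 2, with 2 of 65 calls false. Python 3.11.15 and matplotlib 3.10.9 were used for figures. Alternatives were 3 other scalings, an offset of 25, other thresholds, other filters, no intensity trend, the 2 groups alone, a replicate block and each array left out. Sequence was not analysed here.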

Additional observations from a re-analysis of the deposited data

How the results depend on the processing

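The sizes of both sets moved with most settings. Cyclic loess chose 19 higher probe sets and 50 lower, a smaller share of higher ones than the 35 and 56 reported, and kept 17 of the 35 and 42 of the 56. An offset of 25 gave 16 and 19, and kept 10 and 15. A difference of 0.6 in place of 0.8 gave 69 and 110, and one of 1.0 gave 19 and 34. A limit of 0.2 on prolonged minus control gave 19 and 35. Without a signal minimum there were 179 and 204, and with one of 100 there were 7 and 10. Quantile normalization, median centring and a limit of 0.6 left both counts within 1.5 times. Under quantile normalization, median centring and cyclic loess alike, 15 of 35 and 42 of 56 stayed members, and 7 and 14 with the offset as well. Leaving out 1 array gave 33 to 129 higher and 64 to 162 lower probe sets. The counts were over 1.5 times as large without prolonged replicate 1 (65 and 132), temporal replicate 1 (81 and 155) or temporal replicate 2 (129 and 162), and the cause was not tested. Members that remained were 10 to 26 of the 35 and 34 to 43 of the 56, so a like count does not mean like members. Without control replicate 2 the 38 higher probe sets held 10 of the 35, without prolonged replicate 2 the 38 held 12, and without control replicate 1 the 33 held 15.

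The count of members that passed limma against control, 6 as reported, was 2 without a filter and 3 with the 2 groups alone. Without the intensity trend it was 0, where 53 members and 1874 of all 15922 had an unadjusted p under 0.05. It was 2 without temporal replicate 2 and 3 without any other array, not always members of the 6. Against prolonged induction the 1 became 0 without the intensity trend, where 50 members and 812 of all 15922 had an unadjusted p under 0.05. Without either prolonged or either temporal array, 1 array is left in that group, so no counts at an unadjusted p are given for those fits. For prolonged induction against control the count was 0 in limma throughout, with up to 2 unadjusted. With the replicate block the counts were 7, 1 and 0. Deviations of same-numbered arrays correlated between groups at −0.06 to 0.01. This measure cannot show whether same-numbered arrays were handled together. For the 46 named genes, the sign of temporal minus the mean of the other groups is fixed by the rule when an array is left out or an offset is added. This difference moved by more than the spread between replicates in 17 genes with the offset, in 11 without temporal replicate 1, in 11 without temporal replicate 2, and in 0 under quantile normalization, median centring or cyclic loess. With 2 temporal arrays, leaving out either moves the difference by the same amount in opposite directions, so the 2 counts of 11 are not separate results. AT2G13440, with wide pairs in the other groups, went from 1.69 to 0.75 with the offset and was not counted as moved. Low signals limit most members, and causes of these changes were not tested beyond what each setting itself sets.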
